A study of Mus musculus with 14 samples.

Results

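The comparison described here set B16F10 tumours taken at day 7 after a vehicle injection against untreated tumours taken at day 0, across all genes with enough counts, and used 6 of the 14 RNA-seq libraries of the study. B16F10 is a mouse melanoma cell line, and its cells were grown in C57BL/6 mice, under the skin of the right hind limb. The 3 D5W tumours received, at a size of about 150 mm3, an intratumoral injection of D5W, which is 5% dextrose in water, and carry the label day 7. The 3 day 0 tumours are labelled untreated, day 0, and their size is not given in the labels. All 6 tumours therefore share the cell line, the host strain and the site. The other 8 libraries came from day 7 tumours injected with 2E'/PTX and either siNeg or siPD-L1, and entered the fit only to estimate the spread. No tumour was followed without an injection to day 7, so the injection, the 7 days of growth and the day of collection cannot be told apart. The labels do not say that each library is a separate mouse, so the p-values measure the spread between these samples, which may be technical.

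The cell type label of all libraries names CT26, a colon carcinoma line, while the protocol names B16F10. The expression data were those of pigment cells. Dct, an enzyme of melanin synthesis, had 7073, 8404 and 7724 CPM in D5W tumours, against 7931, 8117 and 7532 CPM in day 0 tumours, and Tyrp1, its close relative, had 5450.4, 5076 and 3871 CPM in D5W tumours, against 4615, 4568 and 4519 CPM in day 0 tumours. CPM is counts per 1000000 of the library total scaled by the trimmed mean of M values. Of the 13 listed intestinal epithelium markers 4 passed the filter on low counts, and Epcam, Cdx1 and Krt20 did not. The tumours are called B16F10 tumours below.

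Immediate early genes, such as those of the Fos, Jun, Nr4a and Egr families, encode transcription factors whose short-lived mRNAs appear within minutes of a stimulus without new protein being made. Many of them are driven by CREB, a factor that protein kinase A phosphorylates when cyclic AMP rises and that also responds to calcium and stress kinases, and their products switch on inhibitors that end the signal, such as MAP kinase phosphatases and mRNA decay factors. In melanocytes the cyclic AMP pathway is known as the route by which melanocortin raises Mitf, the master regulator of the lineage. Solid tumours also contain fibroblasts, vessels and blood cells, and their mRNA is part of any bulk library.

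The 6 libraries held between 60166278 and 85941309 counts. Mitochondrial mRNAs took 2.52 to 4.02% of the counts in D5W tumours, against 7.27, 14.9 and 3.12% in day 0 tumours 1, 2 and 3. D5W tumour 3 stood apart from the other D5W tumours. On the first principal component of the 500 most variable genes, which held 36.6% of their variance, D5W tumours 1, 2 and 3 lay at -2.13, -8.23 and 30.6, against -27.6 to -23.4 for the day 0 tumours. D5W tumour 3 also had 26698 genes with at least 1 count, against 23321 and 23525 in the other D5W tumours and 23103 to 23862 in the day 0 tumours. Counts of at least 3 calls per gene list that differed by more than 1.5 times without that library are therefore given without it too.

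Of the 17141 genes tested, 3691 changed at an adjusted p under 0.05, or 21.5% (edgeR's quasi-likelihood test with Benjamini-Hochberg adjustment). Expression was higher in D5W tumours for 2030 genes, 11.8% of those tested, and lower for 1661 genes, 9.69%. Changes of at least 2-fold were mostly increases, with 519 genes higher (3.03%) and 106 lower (0.618%). The 3 D5W values and the 3 day 0 values did not overlap for 7507 genes, 43.8% of those tested. The median log2 difference over all tested genes was 0.0025, with 8616 genes above 0. When libraries were scaled by their totals alone, 1982 genes were higher and 379 lower, so that 83.9% of the calls were higher, against 55.0% with the main scaling, and decreases below rest on that choice more than increases do. Depending on which single library was left out, the number of changed genes ran between 1350 (without day 0 tumour 1) and 4031 (without D5W tumour 2), and it was 2036 without D5W tumour 3, 2054 without day 0 tumour 2 and 2413 without day 0 tumour 3. Because these are bulk tumours, fewer cells of a type and less RNA per cell cannot be told apart, nor can more cells and more RNA per cell.

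Changes moved with transcript length and base composition. In the quintile of genes with the longest transcripts, with a median length of 6476 bases, 29.6% were higher in D5W tumours and 2.10% lower. In the quintile with the shortest transcripts, with a median of 912 bases, 4.73% were higher and 17.0% lower. Genes called higher had a median transcript GC content of 46.8%, those called lower 52.9% and those not called 49.5%. With the trend over GC content and length removed from the counts, 833 genes were higher and 991 lower, and 785 of the 2030 and 768 of the 1661 kept their call. The part of RNA quality in this trend was not tested, and counts of at least 3 calls per gene list are given again after the trend was removed where they differed by more than 1.5 times.

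**Figure D1:**
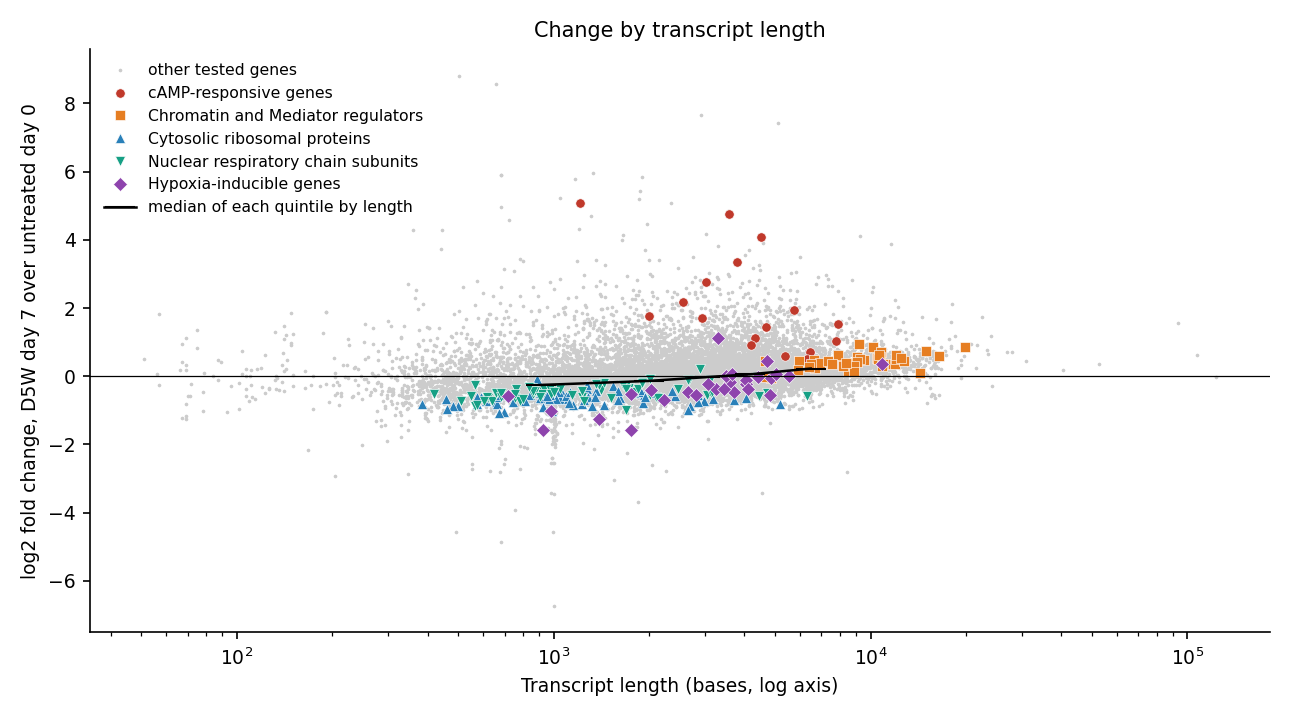
Log2 difference (D5W day 7 minus untreated day 0) of each tested gene by its transcript length in bases, on a log axis. Marked are the cAMP-responsive, chromatin and Mediator, cytosolic ribosomal protein, nuclear respiratory chain and hypoxia-inducible lists. The line joins the medians of the quintiles by length, and the median log2 difference is -0.26 in the shortest quintile and 0.22 in the longest.

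Many early response genes were higher in D5W tumours, and list averages were similar in the 3 D5W tumours while single genes varied more. Of the 18 listed cAMP-responsive genes, all of which were tested, 17 were higher in D5W tumours, or 94.4% against 11.8% of all tested genes, 1 was lower, and the median log2 difference was 1.62. The gene lists, here and below, were written with earlier results of these data known. Their shares follow in part from that choice and are descriptions, not tests. The AP-1 list had 8 of 15 higher (median log2 difference 0.95), the list of Nr4a, Egr and other early response factors 9 of 18 higher and 1 lower (median 0.83), and the list of Krüppel-like factors 7 of 14 higher and 1 lower (median 0.56). The lists share members such as Fosb and the Nr4a genes. Averaged over the AP-1 list, the log2 level differed from the day 0 mean by 0.93, 0.82 and 0.88 in D5W tumours 1, 2 and 3, and over the cAMP-responsive list by 1.75, 1.76 and 2.10. The median ratio between the highest and the lowest D5W value of a gene was 1.56 in the AP-1 list and 1.34 in the cAMP-responsive list. The cAMP-responsive count was 13 without D5W tumour 3 and 13 without day 0 tumour 1, and 14 after the length and GC trend was removed.

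**Figure D2:**
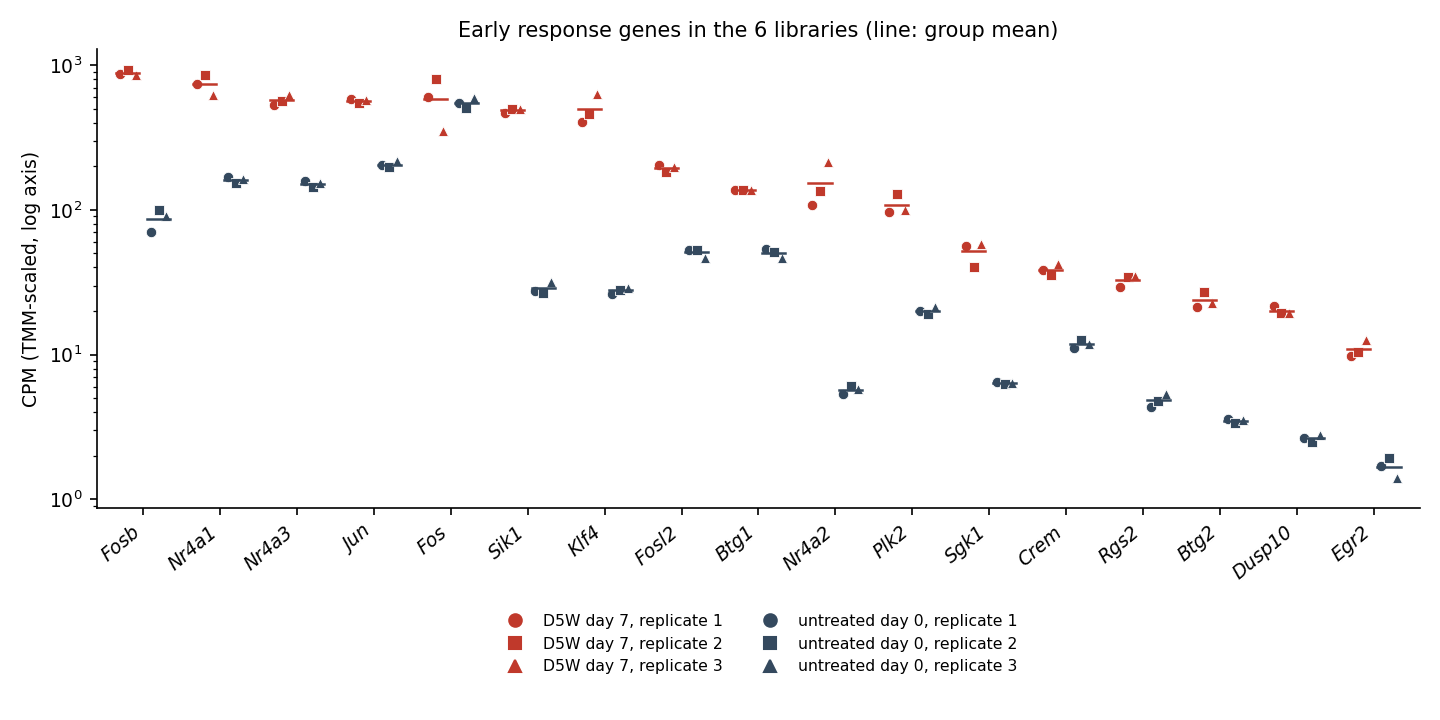
Levels of 17 early response and feedback genes in each library, in CPM on a log axis, with D5W day 7 tumours left of untreated day 0 tumours. For 16 of the genes all 3 D5W points lie above all 3 day 0 points, and Fos is the one whose groups overlap.

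Fosb, which pairs with Jun proteins to form AP-1, had 874, 929 and 853 CPM in D5W tumours, against 70.4, 99.2 and 90.5 CPM in day 0 tumours. Its log2 difference was 3.35 ± 0.22 (SE; edgeR adjusted p = 7.28e-07). Jun had 586, 546 and 573 CPM in D5W tumours, against 203, 198 and 216 CPM in day 0 tumours (log2 difference 1.47 ± 0.16), and Fosl2, a late-acting Fos relative, 205, 181 and 198 CPM in D5W tumours, against 52.8, 53.1 and 46.7 CPM in day 0 tumours (log2 difference 1.94 ± 0.23). Neither overlapped between the groups. Fos itself was not called: it had 601, 801 and 350.4 CPM in D5W tumours, against 545, 502 and 597 CPM in day 0 tumours, with a log2 difference of 0.09 ± 0.34 and an edgeR adjusted p of 0.869. The D5W values of Fos lay on both sides of the day 0 values. Junb, Jund, Atf3 and Mafk rose with log2 differences of 1.53, 1.03, 1.27 and 0.95. Fosl1 was the eighth member called, at under 2 CPM in every library, and lost its call without D5W tumour 3, day 0 tumour 1 or day 0 tumour 3.

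All 3 members of the Nr4a family, orphan nuclear receptors that are induced by cyclic AMP and need no ligand, were higher in D5W tumours. Nr4a2 had 107, 135 and 215 CPM in D5W tumours, against 5.31, 6.04 and 5.76 CPM in day 0 tumours, a log2 difference of 4.74 ± 0.43 (edgeR adjusted p = 4.72e-05). Nr4a1 had 736, 855 and 618 CPM in D5W tumours, against 169, 153 and 162 CPM in day 0 tumours (2.19 ± 0.23 on the log2 scale). Nr4a3 had 532, 567 and 625 CPM in D5W tumours, against 157, 143 and 153 CPM in day 0 tumours (1.93 ± 0.16 on the log2 scale). For each of them the lowest D5W value was well above the highest day 0 value. The zinc finger factors Egr1, Egr2 and Egr3 rose by 1.59, 2.71 and 2.74 on the log2 scale, and each kept its call whichever library was left out. The single member that fell was Ier3, a survival factor induced by NF-kB and p53, with 74.8, 62.6 and 47.5 CPM in D5W tumours, against 124, 97.3 and 107 CPM in day 0 tumours.

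The 250 bases before the RefSeq start of the Nr4a genes are shown because the 3 family members moved together and each window holds several copies of the half-site of the CREB motif, in the letters TGACG or CGTCA, which are capitals below. The windows of Areg and Btg2, 2 further genes that rose, are shown because each holds the full octamer TGACGTCA, which contains both half-sites overlapping. The sequences come from the RefSeq promoter table for GRCm38.p6, 5′ to 3′ on the strand of the gene. The Nr4a1 window lies at chr15:101266596-101266845 on the plus strand, that of Nr4a2 at chr2:57124004-57124253 on the minus strand, that of Nr4a3 at chr4:48045055-48045304 on the plus strand, that of Areg at chr5:91139349-91139598 on the plus strand and that of Btg2 at chr1:134079156-134079405 on the minus strand.
Nr4a1: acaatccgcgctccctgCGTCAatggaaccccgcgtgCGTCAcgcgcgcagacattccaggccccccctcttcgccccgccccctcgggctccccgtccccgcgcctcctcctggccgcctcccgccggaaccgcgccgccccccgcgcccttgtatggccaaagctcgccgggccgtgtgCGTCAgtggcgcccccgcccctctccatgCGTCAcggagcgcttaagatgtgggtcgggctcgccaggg
Nr4a2: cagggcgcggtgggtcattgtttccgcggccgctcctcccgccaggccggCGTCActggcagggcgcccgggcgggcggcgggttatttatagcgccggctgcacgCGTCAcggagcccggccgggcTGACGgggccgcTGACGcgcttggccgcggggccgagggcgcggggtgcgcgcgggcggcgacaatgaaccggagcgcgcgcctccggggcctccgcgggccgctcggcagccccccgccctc
Nr4a3: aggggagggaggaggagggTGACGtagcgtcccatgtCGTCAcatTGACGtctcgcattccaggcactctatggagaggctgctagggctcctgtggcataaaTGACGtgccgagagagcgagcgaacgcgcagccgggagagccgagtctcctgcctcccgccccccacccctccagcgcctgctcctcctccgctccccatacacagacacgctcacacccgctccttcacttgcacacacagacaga
Areg: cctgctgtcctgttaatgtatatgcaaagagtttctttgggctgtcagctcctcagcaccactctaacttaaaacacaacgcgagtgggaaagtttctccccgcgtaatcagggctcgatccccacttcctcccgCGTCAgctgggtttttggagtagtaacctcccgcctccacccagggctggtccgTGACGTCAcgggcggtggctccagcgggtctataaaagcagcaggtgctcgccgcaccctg
Btg2: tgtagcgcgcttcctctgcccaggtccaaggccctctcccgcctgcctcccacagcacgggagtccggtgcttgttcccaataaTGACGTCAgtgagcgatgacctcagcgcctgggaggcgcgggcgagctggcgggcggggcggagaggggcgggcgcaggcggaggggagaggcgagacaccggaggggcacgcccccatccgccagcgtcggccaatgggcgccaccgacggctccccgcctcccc
Counted back from the start, the half-sites begin 233, 213, 69 and 40 bases before the Nr4a1 start, 200, 144, 123 and 111 bases before the Nr4a2 start and 231, 213, 205 and 147 bases before the Nr4a3 start.

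A window of 250 bases was matched for 11857 tested genes, and both strands were searched. The half-site was present in 11 of the 14 cAMP-responsive genes with a window (78.6%), against 28.5% of all tested genes with one. It was in 36.9% of the genes higher in D5W tumours, 27.1% of those lower and 27.4% of those not called. The octamer was in 5.11% of the genes higher in D5W tumours, 2.61% of those lower, 2.47% of those not called and 2.82% of all. The AP-1 heptamer, TGACTCA or TGAGTCA, was in 3.56% of the genes higher in D5W tumours and in 4.17% of all. Among the genes at least 2-fold higher the shares were 31.4% for the half-site, nearer to that of all genes, 5.45% for the octamer and 6.73% for the AP-1 heptamer, above that of all genes. These shares describe letters in a fixed window and no binding was measured. The cAMP-responsive list was written with CREB targets in mind, so its share follows in part from how it was made, and the half-site was searched after the values were seen.

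Outside the transcription factors, the cAMP-responsive genes that rose included kinases, phosphodiesterases and other regulators of signalling. Sik1, a kinase that CREB induces and that then keeps the CREB coactivators out of the nucleus, had 469.8, 500.1 and 496 CPM in D5W tumours, against 27.5, 26.8 and 31.9 CPM in day 0 tumours, a log2 difference of 4.09 ± 0.29 (edgeR adjusted p = 2.51e-06). Its relatives Sik2 and Sik3 rose by less, with log2 differences of 0.58 ± 0.10 and 0.52 ± 0.08. The increase of Sik3 was the smallest of the 17. Crem, which encodes CREB-family activators and the repressor ICER from an internal promoter, had 38.5, 35.4 and 42.2 CPM in D5W tumours, against 11.1, 12.6 and 11.8 CPM in day 0 tumours. Rgs2, which speeds the shutdown of heterotrimeric G proteins, had 29.2, 34.6 and 35.0 CPM in D5W tumours, against 4.33, 4.78 and 5.38 CPM in day 0 tumours. Neither overlapped between the groups. Pde4b, an enzyme that breaks down cyclic AMP, and the small GTPase Gem rose by 1.12 and 1.76 on the log2 scale. Gem, Pde4b, the Sik genes, Crem and Rgs2 kept their calls whichever library was left out.

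Another 4 genes that rose were less secure. Creb5 and Pde10a lost their calls without D5W tumour 3 or day 0 tumour 1, Pde4d without D5W tumours 2 or 3 or day 0 tumours 1 or 3, and Ppargc1a, a coactivator that drives mitochondrial genes, without D5W tumours 1 or 3 or any of the 3 day 0 tumours. The member that fell, Bhlhe40, a repressor of the clock loop, had 327, 359 and 290.1 CPM in D5W tumours, against 473, 415 and 423 CPM in day 0 tumours, and kept its call only when D5W tumour 2 was left out, of the 6 libraries left out in turn. Areg, a ligand of the EGF receptor, was low throughout, with 0.674, 0.429 and 2.10 CPM in D5W tumours, against 0.0292, 0.0362 and 0.0254 CPM in day 0 tumours (log2 difference 5.09 ± 0.92, edgeR adjusted p = 0.0025). All 3 D5W values exceeded all 3 day 0 values. The related ligands Ereg and Hbegf also rose, by 3.71 ± 0.86 and 0.74 ± 0.20 on the log2 scale, and Hbegf lost its call without D5W tumour 3, day 0 tumour 1 or day 0 tumour 2. Of the 9 tested EGF family ligands these 3 rose (33.3%, against 11.8% of all tested genes) and none fell.

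Among the Krüppel-like factors, Klf4 had the largest increase of the list. This factor promotes differentiation and cell cycle exit in epithelia. It had 401, 463 and 634 CPM in D5W tumours, against 26.4, 28.2 and 29.0 CPM in day 0 tumours, a log2 difference of 4.16 ± 0.24 (edgeR adjusted p = 7.05e-07). Klf11 rose by 1.29 ± 0.12 and Klf6 by 0.72 ± 0.14 on the log2 scale. Klf15, which is induced by glucocorticoids in liver and muscle, was lower, with 14.3, 17.5 and 12.1 CPM in D5W tumours, against 24.4, 23.7 and 24.6 CPM in day 0 tumours. These 4 kept their calls whichever library was left out, while Klf9 lost its call without D5W tumour 3 or day 0 tumours 1 or 3. Klf2, which is prominent in endothelium, had 70.3, 70.3 and 32.0 CPM in D5W tumours, against 30.9, 30.3 and 29.9 CPM in day 0 tumours, so that D5W tumour 3 lay close to day 0, and its call was lost in 5 of the 6 analyses that each left out 1 library.

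Genes that end growth factor signals were higher as well. Of 11 MAP kinase phosphatases, which remove the activating phosphates of ERK, JNK and p38, 7 were higher and 1 was lower, with a median log2 difference of 0.91. The shares were 63.6% and 9.09%, against 11.8% and 9.69% of all tested genes. Dusp10, which acts on JNK and p38, had 21.8, 19.3 and 19.2 CPM in D5W tumours, against 2.65, 2.50 and 2.80 CPM in day 0 tumours, a log2 difference of 2.92 ± 0.24 (edgeR adjusted p = 6.89e-06). Dusp5, a nuclear ERK phosphatase, had 16.3, 16.8 and 16.7 CPM in D5W tumours, against 5.99, 5.07 and 5.23 CPM in day 0 tumours. In both genes the 3 D5W values were close together and far from day 0. Dusp14, Dusp1, Dusp8 and Dusp16 rose by 2.66, 0.96, 0.99 and 0.91 on the log2 scale. Dusp7, a cytoplasmic ERK phosphatase, was lower, with 24.2, 25.3 and 25.1 CPM in D5W tumours, against 36.6, 39.6 and 36.2 CPM in day 0 tumours, and Dusp4 lost its increase without D5W tumours 1 or 2 or day 0 tumours 1 or 2. Dusp18, a phosphatase outside that list, was among the most clearly raised abundant genes, with 172, 150.1 and 172 CPM in D5W tumours, against 45.8, 42.6 and 40.05 CPM in day 0 tumours.

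Output genes of the ERK pathway changed in both directions. Of the 13 in that list, 2 were higher and 2 were lower. Each share was 15.4%, near the 11.8% higher and 9.69% lower of all tested genes, and the median log2 difference was 0.01. Spry4, an inhibitor that ERK induces, was lower, with 13.9, 15.0 and 9.67 CPM in D5W tumours, against 23.1, 26.0 and 22.5 CPM in day 0 tumours. Its relative Spry2 was higher, with 95.5, 99.99 and 72.0 CPM in D5W tumours, against 57.4, 55.2 and 50.6 CPM in day 0 tumours. Cyclin D1 (Ccnd1) fell by 0.26 ± 0.08 on the log2 scale, and lost that call whichever single library was left out, with the exception of D5W tumour 3. Dusp4 belongs to both the phosphatase list and the ERK list, and the difference between the lists was not tested.

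Of 14 genes for mRNA decay and antiproliferative factors, 12 were higher (85.7%, against 11.8% of all tested genes) and none was lower, with a median log2 difference of 0.73. The Btg and Tob proteins recruit the deadenylase that shortens poly(A) tails and slow cell division when overexpressed. Btg1 had 136, 137 and 138 CPM in D5W tumours, against 53.8, 50.9 and 46.8 CPM in day 0 tumours, a log2 difference of 1.44 ± 0.10 (edgeR adjusted p = 7.28e-07). Btg2 had 21.4, 27.1 and 22.9 CPM in D5W tumours, against 3.57, 3.38 and 3.54 CPM in day 0 tumours (2.76 ± 0.21 on the log2 scale). The D5W values of Btg1 lay within about 2 CPM of each other, and neither gene overlapped between the groups. Tob1, Tob2 and Btg3 rose by 0.76, 1.29 and 0.53 on the log2 scale. Among the RNA-binding decay factors, Zfp36l1, Zc3h12a, Zc3h12c and Rc3h1 rose by 0.72, 0.86, 0.74 and 0.54, and all 9 genes named so far in this group kept their calls whichever library was left out. Zfp36, the founding member of the tristetraprolin family, lost its call in each of these 6 analyses, Pnrc1 without D5W tumour 2 or day 0 tumours 2 or 3, and Rc3h2 without day 0 tumours 1 or 2.

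Further feedback and stress genes rose among the abundant genes. Plk2, a kinase induced by stress and p53, had 97.2, 128 and 99.0 CPM in D5W tumours, against 19.9, 19.2 and 21.3 CPM in day 0 tumours. Sgk1, a kinase induced by glucocorticoids and osmotic change, had 56.6, 40.04 and 58.4 CPM in D5W tumours, against 6.52, 6.24 and 6.41 CPM in day 0 tumours, a log2 difference of 3.02 ± 0.29. Neither gene overlapped between the groups. Arrdc3, an arrestin relative, had 226, 234 and 183 CPM in D5W tumours, against 72.5, 53.7 and 61.4 CPM in day 0 tumours. Tiparp, an ADP-ribosyltransferase induced through the aryl hydrocarbon receptor, and Ifrd1 rose by 1.35 ± 0.09 and 1.33 ± 0.09 on the log2 scale. Ahnak, a very large scaffold protein, rose by 2.11 ± 0.18. Of 12 tested glucocorticoid targets 6 were higher and 1, Mt1, was lower, and 4 of the 6, Sgk1, Per1, Errfi1 and Dusp1, kept their calls whichever library was left out. Of 24 tested p53 targets 5 were higher (20.8%, against 11.8% of all tested genes) and none was lower, and 2 of the 5, Btg2 and Plk2, belong to groups above. Cdkn1a and the other 18 tested p53 targets were not called, and 3 of the 5 were called without D5W tumour 3 or without day 0 tumour 1, and 2 targets were lower without D5W tumour 2. The fall of Mt1 was lost without day 0 tumours 1 or 3.

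Few genes of the heat shock and unfolded protein lists were called. Of 24 heat shock genes 5 were higher (20.8%, against 11.8% of all tested genes) and none was lower, with Dnajb4, a cochaperone, at 44.9, 41.6 and 53.9 CPM in D5W tumours, against 18.2, 16.9 and 17.7 CPM in day 0 tumours. Hspa1b, the inducible Hsp70 gene, had 79.3, 47.7 and 42.7 CPM in D5W tumours, against 25.4, 33.8 and 19.5 CPM in day 0 tumours, and lost its call without D5W tumours 1 or 3 or day 0 tumours 1 or 3. Its near-identical copy Hspa1a may share reads with it. The number of heat shock genes called higher was 3 without D5W tumours 1 or 3 or day 0 tumours 2 or 3, 2 without day 0 tumour 1 and 3 after the trend was removed. None of the 8 subunits of the chaperonin CCT was called. Of 22 genes for chaperones of the endoplasmic reticulum and Xbp1 targets 1 was higher and 2 were lower, or 4.55% and 9.09%, against 11.8% and 9.69% of all tested genes, and none of these 3 calls held without day 0 tumour 1 or without D5W tumour 3.

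Genes of the Atf4 pathway, which responds to amino acid shortage and to stress on translation, were lower where they changed most clearly. Of 35 tested, 5 were lower and 2 higher, and the share lower (14.3%) was near that of all tested genes (9.69%). Ddit3, which encodes the stress factor CHOP, had 31.4, 31.9 and 40.3 CPM in D5W tumours, against 69.4, 76.0 and 55.0 CPM in day 0 tumours, a log2 difference of -0.95 ± 0.15 (edgeR adjusted p = 0.00104). Atf4 itself had 326, 352 and 309 CPM in D5W tumours, against 475, 459.9 and 409 CPM in day 0 tumours. The groups did not overlap for either gene, and both kept their calls whichever library was left out. Trib3, Psph and Phgdh, which are targets of Atf4, fell by 0.62, 0.45 and 0.37 on the log2 scale. Of these, Trib3 lost its call without D5W tumour 3 or day 0 tumours 1 or 2 and Phgdh without day 0 tumour 1, which left 3 genes of the list lower. After the trend was removed 3 were lower. Neither of the 2 higher calls, Cebpb and Ppp1r15a, held without D5W tumour 3 or without any 1 of the day 0 tumours.

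Of 28 tested hypoxia-inducible genes 12 were lower (42.9%, against 9.69% of all tested genes), 2 were higher and the median log2 difference was -0.37. The transcription factor HIF switches such genes on when oxygen is short. Ddit4, an inhibitor of mTORC1 that hypoxia, starvation and glucocorticoids induce, had 72.1, 67.1 and 41.2 CPM in D5W tumours, against 191, 175 and 167 CPM in day 0 tumours, a log2 difference of -1.56 ± 0.18 (edgeR adjusted p = 0.000129). Adm, the vessel-dilating peptide adrenomedullin, had 25.9, 24.4 and 17.4 CPM in D5W tumours, against 58.7, 50.1 and 53.1 CPM in day 0 tumours, a log2 difference of -1.26 ± 0.13 (edgeR adjusted p = 4.65e-05). The lowest value of each gene was that of D5W tumour 3, and every D5W value was below every day 0 value. Ankrd37 had 5.71, 5.71 and 3.09 CPM in D5W tumours, against 16.5, 14.6 and 12.7 CPM in day 0 tumours. Hilpda, which blocks the breakdown of lipid droplets, and Pfkfb3, which raises glycolytic flux, fell by 1.01 ± 0.20 and 0.55 ± 0.10 on the log2 scale. These 5 kept their calls whichever library was left out.

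The other decreases named from the hypoxia list were smaller in size and less secure. Vegfa, the main growth factor of endothelium, had 277, 266 and 222 CPM in D5W tumours, against 356, 329.8 and 311 CPM in day 0 tumours, and lost its call without D5W tumour 3 or day 0 tumour 1. Bnip3 fell by 0.53 ± 0.14 and lost its call without day 0 tumour 1 or 2. The count of lower genes in the list was 8 without D5W tumour 3 and 5 without day 0 tumour 1, and it was 7 when libraries were scaled by their totals alone. Car9, Slc2a1 and Ndrg1, which are commonly read as hypoxia markers, were not called, with Car9 at 269, 241 and 125 CPM in D5W tumours, against 317, 277 and 249 CPM in day 0 tumours. Hif1a, the subunit of HIF that is controlled mainly through its protein, was higher, with 153, 156 and 230.4 CPM in D5W tumours, against 128, 128 and 139.8 CPM in day 0 tumours, and lost its call without D5W tumour 3 or any of the 3 day 0 tumours. Angptl4, also in the list, was higher by 1.12 ± 0.32 on the log2 scale. It had 3.90, 2.77 and 3.48 CPM in D5W tumours, against 1.57, 1.76 and 1.33 CPM in day 0 tumours. No higher call of the list held without D5W tumour 3 or any 1 of the day 0 tumours.

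The windows before Ankrd37 and Ddit4, both among the lowest of the list, are shown with the core letters of the HIF motif, ACGTG or CACGT, in capitals. They come from the same RefSeq table, that of Ankrd37 at chr8:45999851-46000100 and that of Ddit4 at chr10:59951771-59952020, both on the minus strand.
Ankrd37: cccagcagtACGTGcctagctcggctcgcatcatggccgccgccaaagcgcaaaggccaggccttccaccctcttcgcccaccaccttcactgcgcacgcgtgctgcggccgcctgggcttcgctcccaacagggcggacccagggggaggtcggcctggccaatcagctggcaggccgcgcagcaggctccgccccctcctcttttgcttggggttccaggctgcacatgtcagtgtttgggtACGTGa
Ddit4: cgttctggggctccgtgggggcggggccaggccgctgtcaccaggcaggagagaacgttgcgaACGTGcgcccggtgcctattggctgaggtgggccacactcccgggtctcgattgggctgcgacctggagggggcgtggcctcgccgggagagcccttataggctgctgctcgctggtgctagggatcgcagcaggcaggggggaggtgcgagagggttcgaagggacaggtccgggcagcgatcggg
The core was found in 16 of the 22 hypoxia-inducible genes with a window (72.7%), against 23.9% of all tested genes with one and 27.7% of the genes lower in D5W tumours. It was not particular to that list. The core was also in 8 of 14 cAMP-responsive genes (57.1%) and 5 of 12 genes of the Nr4a and Egr list (41.7%), which had mostly higher calls. These letters are not in the window of Adm. The hypoxia list is made of known HIF targets, so its share follows in part from how it was made.

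**Figure D3:**
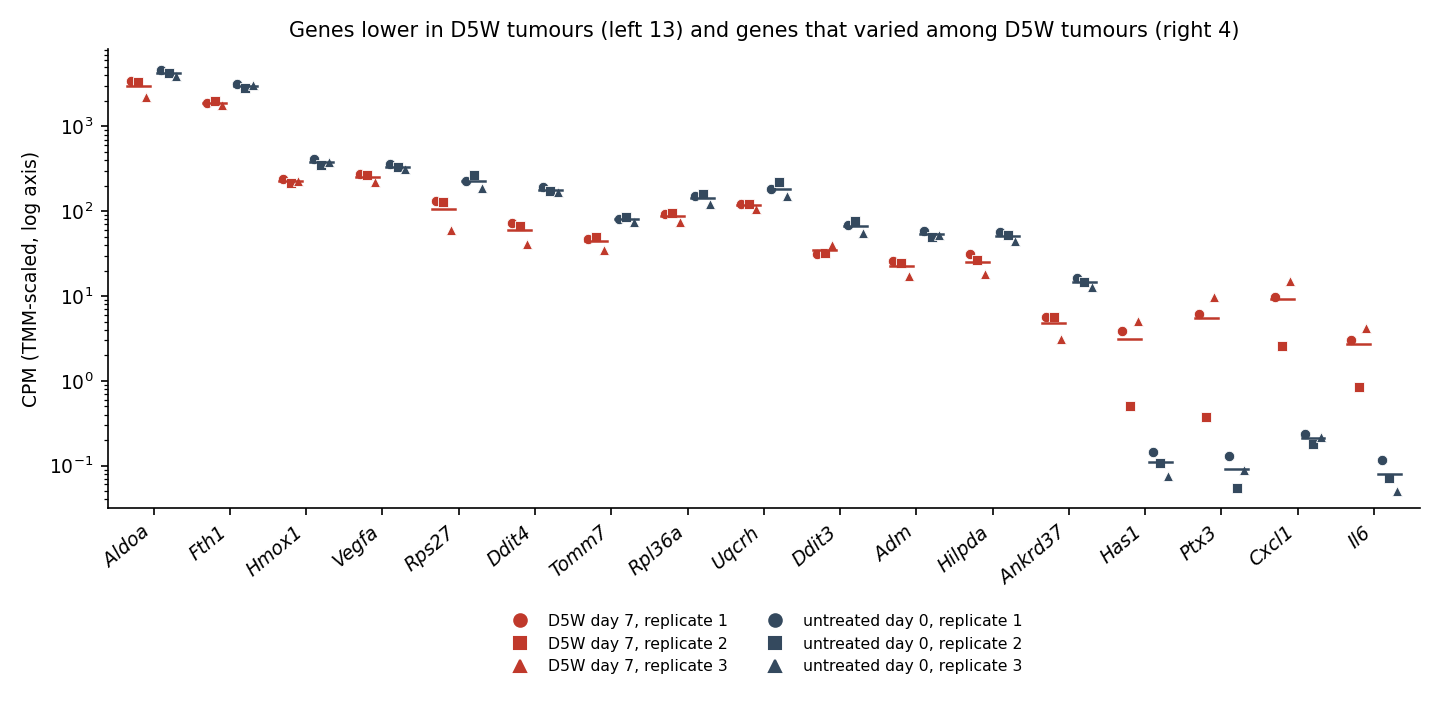
Levels of 13 genes that were lower in D5W day 7 tumours and of 4 that varied widely among them, in CPM on a log axis, with D5W tumours left of untreated day 0 tumours. In the 13 lower genes every D5W point is below every day 0 point, and in Has1, Ptx3, Cxcl1 and Il6 the D5W points span a several-fold range above day 0.

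Nuclear respiratory chain genes were lower by small amounts and in large numbers, and glycolysis genes in smaller numbers. Of 23 genes for glucose uptake and glycolysis 7 were lower (30.4%, against 9.69% of all tested genes), each with D5W tumour 3 as the lowest library. Aldoa, aldolase A, had 3474, 3344 and 2254 CPM in D5W tumours, against 4599, 4215 and 3891 CPM in day 0 tumours, a log2 difference of -0.49 ± 0.14. No gene of the list was called without D5W tumour 3, day 0 tumour 1 or day 0 tumour 2, after the length and GC trend was removed, or with libraries scaled by their totals, and 3 were called without day 0 tumour 3. Of 72 nuclear genes for subunits of the respiratory chain 45 were lower (62.5%) and none was higher, with a median log2 difference of -0.48. Uqcrh, the hinge subunit of complex III, had 122, 123 and 106 CPM in D5W tumours, against 182, 222 and 150.2 CPM in day 0 tumours, and kept its call whichever library was left out. The count was 28 without D5W tumour 3, 17 without day 0 tumour 1, 27 without day 0 tumour 2, 20 with libraries scaled by their totals and 18 after the trend was removed. Of the 18 genes of the tricarboxylic acid cycle 2 were lower (11.1%, near the 9.69% of all tested genes) and none was higher. No call held without D5W tumour 3, day 0 tumour 1 or day 0 tumour 3. Tomm7, a short subunit of the mitochondrial import pore, had 47.6, 49.9 and 34.8 CPM in D5W tumours, against 80.6, 85.8 and 75.3 CPM in day 0 tumours, and kept its call whichever library was left out.

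Cytosolic ribosomal proteins had the highest share of genes called lower among the 65 lists. Of 78 tested, 72 were lower (92.3%, against 9.69% of all tested genes) and none was higher, with a median log2 difference of -0.63. Rpl36a had 92.9, 94.9 and 74.3 CPM in D5W tumours, against 152, 158 and 121 CPM in day 0 tumours, a log2 difference of -0.72 ± 0.11, and Rps27 had 133, 129.9 and 60.03 CPM in D5W tumours, against 227, 269 and 189 CPM in day 0 tumours. In Rps27 the value of D5W tumour 3 was far below those of the other D5W tumours, and the call was lost without day 0 tumour 2. Averaged over the list, the log2 level differed from the day 0 mean by -0.47 in both D5W tumours 1 and 2 and by -1.04 in D5W tumour 3. The count was 47 without D5W tumour 3, 35 without day 0 tumour 1 and 35 without day 0 tumour 2, and 45 with libraries scaled by their totals and 51 after the trend was removed. Mitochondrial ribosomal proteins had 37 of 74 lower and none higher, with 22 lower without D5W tumour 3, 13 without day 0 tumour 1, 19 without day 0 tumour 2, 9 with libraries scaled by their totals and 19 after the trend was removed. Ribosome biogenesis genes, which act in the nucleolus, had 6 of 36 higher and 1 lower, but none was higher without day 0 tumours 1 or 2 or after the trend was removed, 2 without D5W tumour 3 and 3 without day 0 tumour 3. Ribosomal protein genes have many processed pseudogenes that could share their reads. Of 718 processed pseudogenes tested 59 were lower and 4 were higher, or 8.22% and 0.557%, against 9.69% and 11.8% of all tested genes.

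The calls of the mitochondrially encoded mRNAs depended on which libraries were used. Of 13 tested 9 were lower, with a median log2 difference of -1.71. mt-Cytb had 5256, 7421 and 8426 CPM in D5W tumours, against 18865, 40577 and 7735 CPM in day 0 tumours. The value of day 0 tumour 3 lay among the D5W values, while the other day 0 tumours were above every D5W tumour. None was called without D5W tumour 3, 2 to 4 without D5W tumours 1 or 2 or day 0 tumours 1 or 2, and 11 without day 0 tumour 3, and 3 were lower after the trend was removed. Globin mRNA, a measure of blood in the sample, moved in a similar order among the day 0 tumours: Hbb-bs had 87.2, 28.3 and 6.59 CPM in D5W tumours, against 160.4, 591 and 80.0 CPM in day 0 tumours. Of 11 erythroid and platelet markers tested 1 was called higher and 1 lower, but the median log2 difference was -2.58 and only 1 marker lay above 0. Averaged over these markers, the log2 level differed from the day 0 mean by -0.78, -2.04 and -3.06 in D5W tumours 1, 2 and 3. The median ratio between the highest and the lowest value was 7.37 over the D5W tumours and 7.39 over the day 0 tumours. The part of blood content in the mitochondrial result was not tested.

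**Figure D4:**
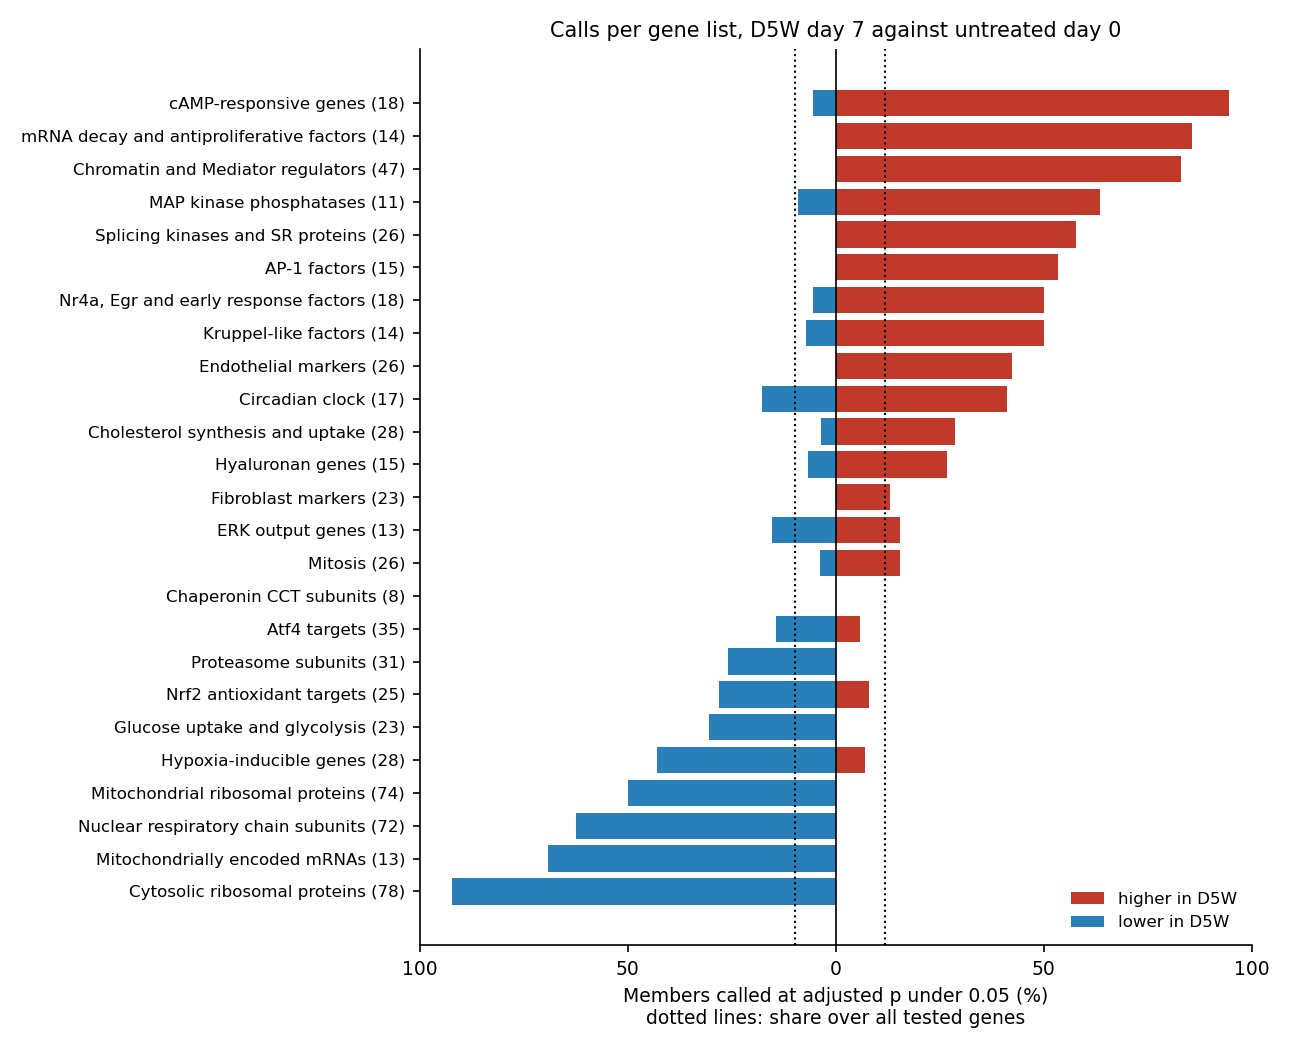
For a selection of the 65 gene lists, the share of tested members called higher or lower in D5W day 7 tumours against untreated day 0 tumours, in percent, with the shares over all 17141 tested genes as reference lines. The cAMP-responsive, mRNA decay and chromatin lists have the highest shares called higher, and cytosolic ribosomal proteins have the highest share called lower. The lists were written with earlier results of these data known.

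Chromatin regulators and splicing kinases were higher in numbers. Of 47 chromatin and Mediator genes 39 were higher (83.0%, against 11.8% of all tested genes) and none was lower, with a median log2 difference of 0.43. Their median transcript length was 8862 bases, and with the length and GC trend removed 9 were higher. Kmt2d, a histone H3 methyltransferase, rose by 0.86 ± 0.11 and Med13l, a subunit of the Mediator kinase module, by 0.52 ± 0.07 on the log2 scale, and both kept their calls after the trend was removed and whichever library was left out. Of 26 genes for splicing kinases and SR proteins 15 were higher and none was lower, with a median log2 difference of 0.30, and 10 were higher after the trend was removed. Clk1, a kinase that phosphorylates SR splicing factors, had 208, 224 and 264 CPM in D5W tumours, against 88.2, 87.1 and 85.3 CPM in day 0 tumours. Ccnl1, a cyclin of splicing-linked kinases, had 113, 123 and 131 CPM in D5W tumours, against 57.0, 63.0 and 60.5 CPM in day 0 tumours. Neither overlapped between the groups. The count for the splicing list was 9 without day 0 tumour 1.

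Clock genes changed in both directions. Of 17 tested 7 were higher and 3 were lower, or 41.2% and 17.6%, against 11.8% and 9.69% of all tested genes. Per1, a repressor of the clock that cyclic AMP and glucocorticoids also induce, had 131, 142 and 105 CPM in D5W tumours, against 47.8, 45.8 and 46.4 CPM in day 0 tumours, and Cry1, its partner, 21.5, 19.2 and 20.3 CPM in D5W tumours, against 12.4, 10.7 and 12.4 CPM in day 0 tumours. Cry2, Per2 and Nfil3 rose by 0.68, 1.46 and 1.32 on the log2 scale. These 5 kept their calls whichever library was left out. Ciart, Bhlhe40 and Bhlhe41, which repress the loop, were called lower, and each lost its call when 1 library was left out, Ciart without D5W tumour 3 or day 0 tumour 1, and none of the 3 was called without D5W tumour 3. The hour of collection is not given in the labels, and its part in these values was not tested.

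Among signalling pathways, a few feedback genes rose while most members were not called. Axin2, the negative feedback gene of Wnt signalling, had 22.7, 20.5 and 24.9 CPM in D5W tumours, against 9.74, 9.95 and 10.2 CPM in day 0 tumours, and of the 7 tested Wnt feedback targets 2 were higher and 1, Ccnd1, was lower. Socs3, the inhibitor that STAT3 induces, had 49.3, 77.8 and 47.8 CPM in D5W tumours, against 16.6, 15.9 and 21.2 CPM in day 0 tumours, and Lif, a cytokine of the IL-6 family, had 3.03, 1.82 and 2.21 CPM in D5W tumours, against 0.496, 0.344 and 0.470 CPM in day 0 tumours. Both were higher in every D5W tumour than in any day 0 tumour. Of the 23 genes for JAK-STAT feedback and the IL-6 family 6 were higher and 1 was lower, with 3 higher and none lower without day 0 tumour 1. In the TGF-beta and BMP list 8 of 25 were higher and 1 was lower (4 higher without D5W tumour 3 or day 0 tumour 3, 3 without day 0 tumour 1, 5 without day 0 tumour 2 and 5 after the trend was removed), among them the inhibitors Skil (0.84 ± 0.11 on the log2 scale) and Smad7 (1.14 ± 0.19). The 5 Notch genes called higher of 14 included Dll4, a ligand of tip endothelial cells, and 2 were called without D5W tumour 3, none without day 0 tumour 1, 1 without day 0 tumour 3 and 2 after the trend was removed. The shares higher and lower were 28.6% and 14.3% for the Wnt targets and 26.1% and 4.35% for the JAK-STAT list. They were 32% and 4% for the TGF-beta and BMP list and 35.7% and 0% for the Notch list. Over all tested genes they were 11.8% and 9.69%.

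Cholesterol synthesis had a small core of increases. Of 28 genes 8 were higher (28.6%, against 11.8% of all tested genes) and 1 was lower (3.57%, against 9.69%), while the median log2 difference was 0.04. Hmgcs1, at an early step of the pathway, had 453, 419 and 438 CPM in D5W tumours, against 274, 239 and 238 CPM in day 0 tumours. The groups did not overlap. Idi1 and Hsd17b7 rose by 0.55 and 0.79 on the log2 scale. These 3 kept their calls whichever library was left out, and the count for the list was 4 without any 1 of the 3 day 0 tumours.

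Iron and oxidant handling genes included some of the clearest decreases of abundant mRNAs. Fth1, the heavy chain of the iron store ferritin, had 1913, 1978 and 1767 CPM in D5W tumours, against 3164, 2807 and 3061 CPM in day 0 tumours, a log2 difference of -0.67 ± 0.09 (edgeR adjusted p = 0.0004). Hmox1, which releases iron from heme, had 242, 213 and 226 CPM in D5W tumours, against 413, 352 and 384 CPM in day 0 tumours (-0.75 ± 0.13 on the log2 scale). The groups did not overlap in either gene and both calls held whichever library was left out. Of the 25 Nrf2 targets that include these genes 7 were lower (28%, against 9.69% of all tested genes) and 2 higher (8%, against 11.8%). Gclc, the catalytic subunit of glutathione synthesis, went the other way, with 72.2, 68.4 and 142 CPM in D5W tumours, against 43.1, 44.2 and 43.5 CPM in day 0 tumours. D5W tumour 3 was the highest of the libraries for Gclc. The count of lower Nrf2 targets was 2 with libraries scaled by their totals, 4 without D5W tumour 3 or day 0 tumour 2, 2 without day 0 tumours 1 or 3 and 4 after the trend was removed.

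The tumour cells' own lineage genes changed in a few places. Mitf had 1085, 1073 and 1305 CPM in D5W tumours, against 539, 522 and 561 CPM in day 0 tumours, a log2 difference of 1.09 ± 0.12 (edgeR adjusted p = 6.57e-05). Its relative Tfe3 fell by 0.24 ± 0.07 on the log2 scale, a call lost without D5W tumour 3 or day 0 tumours 1 or 2. Of 22 melanin and melanosome genes, many of which Mitf is known to activate, 2 were higher and 3 were lower, and the median log2 difference was -0.06. The shares were 9.09% and 13.6%, near the 11.8% and 9.69% of all tested genes. After the trend was removed 1 was higher and 1 was lower. Mlana, a melanosome protein, was lower, with 411, 411 and 306 CPM in D5W tumours, against 567, 539 and 522 CPM in day 0 tumours. Dct, Tyrp1, Pmel and Tyr were not called. Of 26 neural crest and melanoma state genes 6 were higher (23.1%, against 11.8% of all tested genes) and none was lower. There were 3 higher without D5W tumour 3 or day 0 tumour 3, 2 without day 0 tumours 1 or 2 and 2 after the trend was removed. Sox4 had 85.2, 88.9 and 86.3 CPM in D5W tumours, against 56.6, 59.3 and 59.8 CPM in day 0 tumours. Among the 6 it was the one whose call held under each library left out and after the trend was removed.

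Most proliferation genes were not called. Of 31 DNA replication genes 1 was higher (3.23%, against 11.8% of all tested genes) and 2 were lower (6.45%, against 9.69%), and none was called without day 0 tumour 1. Of 26 mitosis genes 4 were higher (15.4%, near the 11.8% of all tested genes) and 1 was lower (3.85%, against 9.69%). Without day 0 tumour 2, 4 were lower, and after the trend was removed 1 was higher. The 4 called higher in the full data encode large proteins and include Aspm, a spindle pole protein, with 132, 125 and 156 CPM in D5W tumours, against 80.2, 64.8 and 94.6 CPM in day 0 tumours, which kept its call after the trend was removed. The others called higher were Mki67, Cenpf and Cenpe, with log2 differences of 0.58, 0.71 and 0.47. The lowest day 0 value of Aspm, Mki67 and Cenpf was in each case that of day 0 tumour 2, the library with the largest mitochondrial share. Of 31 replication-dependent histone genes, whose mRNAs mostly lack poly(A) tails, 5 were higher (16.1%, near the 11.8% of all tested genes) and none was lower. The count was 3 higher without D5W tumour 1 or any 1 of the day 0 tumours. Hist1h1c had 77.3, 64.4 and 54.2 CPM in D5W tumours, against 38.9, 35.5 and 37.8 CPM in day 0 tumours. In the Bcl2 family 4 of 17 were higher and 6 were lower, and without day 0 tumour 1 there were none higher and 2 lower, and without D5W tumour 3 there were 1 higher and 3 lower. Bad, which promotes cell death, fell by 0.45 ± 0.09 on the log2 scale, and kept its call whichever library was left out.

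Several inflammatory genes had large fold changes at low levels, with wide spread among the D5W tumours. Cxcl1, a chemokine that draws neutrophils, had 9.70, 2.59 and 15.1 CPM in D5W tumours, against 0.233, 0.181 and 0.216 CPM in day 0 tumours, a log2 difference of 5.42 ± 0.77 (edgeR adjusted p = 0.000738). Il6 had 3.06, 0.847 and 4.22 CPM in D5W tumours, against 0.117, 0.0724 and 0.0508 CPM in day 0 tumours, and Ptx3, a soluble pattern receptor made by stromal and myeloid cells, had 6.15, 0.373 and 9.88 CPM in D5W tumours, against 0.131, 0.0543 and 0.0888 CPM in day 0 tumours. In all 3 genes D5W tumour 2 was the lowest D5W tumour and still above day 0. Tnf and Il1a were more even, with Tnf at 4.93, 6.39 and 8.81 CPM in D5W tumours, against 0.379, 0.380 and 0.495 CPM in day 0 tumours, and Il1a at 5.64, 4.94 and 9.75 CPM in D5W tumours, against 0.219, 0.434 and 0.279 CPM in day 0 tumours. Il10, an anti-inflammatory cytokine, had 1.37, 1.47 and 3.36 CPM in D5W tumours, against 0.102, 0.0543 and 0.0761 CPM in day 0 tumours. Cd14, a receptor for bacterial lipopolysaccharide on myeloid cells, had 18.7, 16.2 and 22.6 CPM in D5W tumours, against 3.83, 4.11 and 3.78 CPM in day 0 tumours, and lost its call without D5W tumour 3 or day 0 tumour 1. Few of the other listed markers of leukocytes were called: of 16 macrophage markers 1 was higher and 1 lower, of 18 lymphocyte markers none was higher and 1 lower, of 10 dendritic cell markers and of 5 mast cell and basophil markers none was called, and of 9 neutrophil markers 1 was higher and 1 lower. The median log2 difference was 1.58 over the mast cell and basophil markers and -0.89 over the neutrophil markers, and the median ratio between the highest and the lowest D5W value was 8.24 over the mast cell and basophil markers and 3.36 over the lymphocyte markers. The higher neutrophil marker, Il1r2, lost its call without any 1 library other than D5W tumour 2, and the lower lymphocyte marker, Ms4a1, without D5W tumour 3 or day 0 tumours 1 or 2, and 2 lymphocyte markers were higher without D5W tumour 2.

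Stromal genes separated the D5W tumours from each other. Of the 239 genes that rose at least 2-fold with a mean of at least 1 CPM, 107 had a ratio of under 1.5 between the highest and the lowest D5W value, and 36 had a ratio of over 3. Of those 36, 34 were highest in D5W tumour 3 and 35 were lowest in D5W tumour 2. Col1a1 and Col3a1, the main collagens of fibroblasts, had 196, 34.5 and 232 CPM and 207, 32.5 and 409 CPM in D5W tumours, against 45.6, 38.8 and 46.1 CPM and 47.6, 35.1 and 55.0 CPM in day 0 tumours, and were not called (edgeR adjusted p = 0.111 and 0.0969). D5W tumour 2 lay at or below the day 0 values in both genes, while D5W tumours 1 and 3 were several-fold above. Averaged over 23 fibroblast markers, the log2 level differed from the day 0 mean by 1.03, -0.25 and 1.56 in D5W tumours 1, 2 and 3. The median ratio between the highest and the lowest value was 3.80 over the D5W tumours and 1.25 over the day 0 tumours. Of these markers 3 were called higher, none without D5W tumour 3 or without day 0 tumour 1, 1 without day 0 tumours 2 or 3, 16 without D5W tumour 2 and none after the trend was removed.

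**Figure D5:**
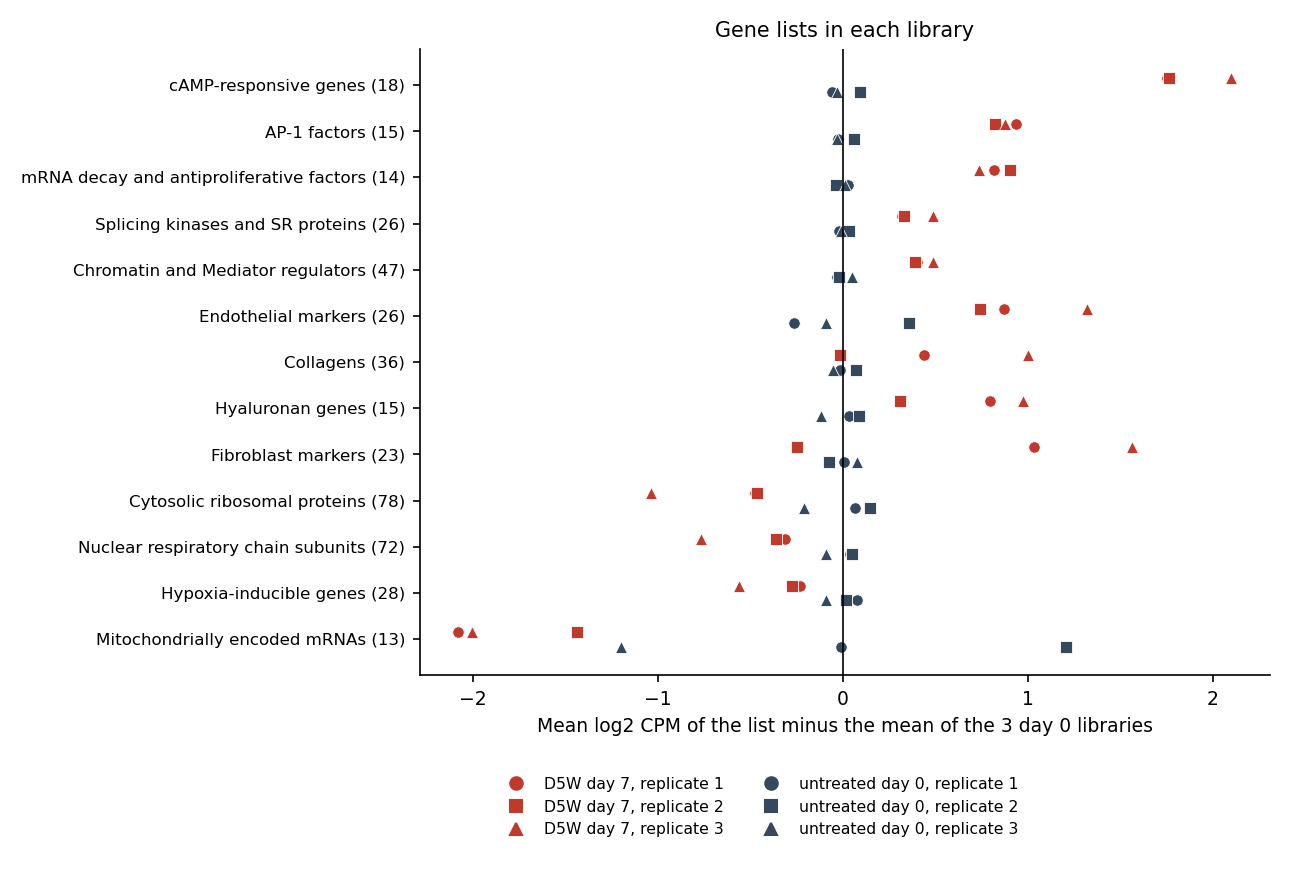
Mean log2 CPM of gene lists in each library as the difference from the mean of the 3 untreated day 0 tumours, with D5W day 7 tumours above day 0 tumours. The 3 D5W tumours lie between 0.82 and 0.93 for the AP-1 factors and spread from -0.25 to 1.56 for the fibroblast markers.

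Several matrix genes were likewise lowest in D5W tumour 2 among the D5W tumours, while Hyal2, Adamts1 and Mmp14 were lowest in D5W tumour 3. Has1, a hyaluronan synthase, had 3.83, 0.508 and 5.13 CPM in D5W tumours, against 0.146, 0.109 and 0.0761 CPM in day 0 tumours, a log2 difference of 4.83 ± 1.01, and Tnfaip6, which crosslinks hyaluronan in inflamed tissue, had 12.1, 4.47 and 16.5 CPM in D5W tumours, against 1.55, 1.45 and 1.29 CPM in day 0 tumours. Has2 rose as well, by 2.07 ± 0.42 on the log2 scale. In the 3 genes the lowest D5W value, in tumour 2, was above the highest day 0 value. Of 15 hyaluronan genes 4 were higher (26.7%, against 11.8% of all tested genes) and 1, the hyaluronidase Hyal2, was lower (6.67%, against 9.69%). Of 36 collagens 3 were higher (8.33%) and 1 was lower (2.78%), with 12 higher without D5W tumour 2 and 1 higher when any other of the 6 libraries was left out or after the trend was removed. Col12a1, a collagen bound to fibril surfaces, had 12.8, 5.44 and 13.6 CPM in D5W tumours, against 2.93, 2.90 and 3.55 CPM in day 0 tumours, and was the one that kept its call whichever library was left out. Of 38 matrix proteases and inhibitors 7 were higher (18.4%) and 2 were lower (5.26%), with 11 higher without D5W tumour 2 and 2 higher without D5W tumour 3 or without any 1 of the day 0 tumours. Adamts1, a protease that cleaves versican, had 418, 335 and 331 CPM in D5W tumours, against 208, 199 and 186 CPM in day 0 tumours, and Mmp14, a membrane-bound collagenase, had 290.2, 283 and 213 CPM in D5W tumours, against 365, 356 and 363 CPM in day 0 tumours, both with calls that held whichever library was left out.

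Some endothelial markers were higher in the full data. Of 26 tested 11 were higher (42.3%, against 11.8% of all tested genes), none was lower, and the median log2 difference was 1.02. Kdr, the main VEGF receptor, had 3.83, 4.37 and 6.03 CPM in D5W tumours, against 1.24, 2.19 and 1.64 CPM in day 0 tumours, and Vwf, the clotting factor that vessels store, had 51.0, 28.2 and 35.9 CPM in D5W tumours, against 21.7, 24.3 and 22.9 CPM in day 0 tumours. Vcam1, an adhesion molecule of inflamed vessels, had 5.82, 5.33 and 10.2 CPM in D5W tumours, against 2.26, 2.88 and 2.27 CPM in day 0 tumours. Day 0 tumour 2 was the highest day 0 library for all 3 genes. The junction protein Cdh5 and Pecam1 rose by 1.42 ± 0.43 and 1.08 ± 0.36. The count was 3 without D5W tumour 3, 2 without day 0 tumour 1, 5 without day 0 tumour 3 and 6 after the trend was removed, and Vwf kept its call in each of the analyses that left out 1 library. Eng, Angpt2 and Plvap were not called. Sele, an adhesion molecule that endothelium makes when activated, had 0.319, 0.124 and 0.564 CPM in D5W tumours, against counts of 0 in all 3 day 0 libraries.

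Among other cell types, 12 pericyte and smooth muscle markers included 1 higher, lost without D5W tumour 3 or any 1 of the day 0 tumours, and 1 lower, 16 skeletal muscle markers 2 higher and 1 lower, of which neither higher call held without D5W tumour 3 or day 0 tumours 1 or 2, and 8 Schwann cell markers 1 higher, which was Egr2. None of the 5 tested adipocyte markers or of the 5 tested keratinocyte and hair follicle markers was called. Of 52 axon guidance genes 7 were higher and 5 were lower, in both cases near the shares over all tested genes, and there were 3 of each without day 0 tumour 1, 4 higher and 3 lower without D5W tumour 3, and 3 of each after the trend was removed. Sema4c fell by 0.98 ± 0.15 and Plxna2 rose by 1.68 ± 0.30 on the log2 scale, and both kept their calls whichever library was left out.

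The 2 treated groups of day 7 share the day 0 libraries with this comparison, so their values are given side by side only. Nr4a2 differed from day 0 by 4.74 in D5W tumours, by 3.58 in 2E'/PTX siNeg tumours and by 4.01 in 2E'/PTX siPD-L1 tumours on the log2 scale. For Sik1 the log2 differences were 4.09, 3.64 and 3.91 in the same order of groups, and for Fosb 3.35, 3.45 and 3.09. Adm differed by -1.26 in D5W tumours, by -0.80 in siNeg tumours and by -0.63 in siPD-L1 tumours. For Cxcl1 the log2 differences were 5.42 in D5W tumours, 2.85 in siNeg tumours and 3.83 in siPD-L1 tumours. The differences between the day 7 groups were not tested here.

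Several genes named above overlap a gene on the other strand, among them Jun, Junb, Mitf, Ddit3, Aldoa and Ankrd37. The libraries were made with a stranded kit, and the strand setting of the counting is not given in the sources used here, so reads of the overlapping parts may be shared.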

How the data were processed

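Total RNA from subcutaneous tumours was isolated with an RNeasy kit and sequenced from a stranded TruSeq library, per the labels' protocols. The deposited table holds whole-number read counts per gene, unnormalised, for 14 libraries and 37409 genes, of which 3935 were 0 in every library. Per the submitters' processing notes the authors used FastQC 0.11.3, STAR, featureCounts and edgeR with GRCm38. The sources used here do not give versions of the other tools, the annotation or the strand setting. Of the gene IDs 37386 matched GENCODE M21, which gave symbols, coordinates, transcript length and GC content.

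Groups were taken from the labels. Genes passing edgeR's filterByExpr in the 14 libraries (17141) were scaled by the trimmed mean of M values and fitted in 1 robust quasi-likelihood model of all 14 libraries (edgeR 4.0.16, R 4.3.3), with Benjamini-Hochberg adjustment over all of them and a threshold of 0.05. Log2 differences are D5W minus day 0 with standard errors from the fit. The biological coefficient of variation was 16.6%. The 6 libraries hold 60166278 to 85941309 counts, and the precision is limited mainly by the spread between 3 libraries a group. Alternatives were DESeq2 1.42.0, limma 3.58.1 with voom and sample weights, other scalings and filters, only the 2 groups, a replicate block, each library left out, offsets for the trend over transcript GC content and length (mgcv 1.9.3) and, added after seeing the data, leaving out siPD-L1 library 1, in which 13.9% of counts came from ribosomal RNA-like genes. The script was tested on simulated data.

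Genes were named by 3 rules: the 12 highest and 12 lowest log2 differences among called genes with a mean of at least 1 CPM and no overlap of the groups, the 12 risen and 12 fallen genes with the smallest p at a mean of at least 50 CPM, predicted genes, receptor segments and pseudogenes left out of both, and the up to 5 called members with the smallest p of each of 65 gene lists. Other members of the lists are given by their values. Other genes named were chosen after their values were seen. The comparison and the lists, 1530 genes of which 1396 were tested, were chosen with earlier results of these data known. Promoter sequences are 250 bases before the RefSeq start on GRCm38.p6.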

Additional observations from a re-analysis of the deposited data

How the results depend on the processing

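The 3691 changed genes (2030 higher, 1661 lower) became 2361 (1982 and 379) with libraries scaled by their totals, 2320 (1408 and 912) with no filter on low counts, 2237 (1369 and 868) with only the 2 groups in the fit, and 1824 (833 and 991) with the GC and length trend removed. Limma voom found 5498 (2821 and 2677) and DESeq2 4532 (2330 and 2202). The replicate block gave 3695 (1964 and 1731) over all 14 libraries and 1683 (1002 and 681) over the 2 groups. Deviations from the group means correlated between same-numbered libraries with r = 0.214, -0.121 and -0.0175 for numbers 1, 2 and 3. D5W tumour 1 correlated best with the day 0 tumour of its own number. D5W tumours 2 and 3 each correlated better with a day 0 tumour of another number. The labels state no pairing, and deviations from means of 3 libraries cannot decide whether there was one. With 1 library left out at a time, where the group of 2 is assumed to vary like the others, the counts ran between 1350 and 4031 in all, 874 and 2136 higher, and 476 and 1895 lower. Leaving out siPD-L1 library 1 gave 3768. Of the 2030 higher genes 1210 kept their call without D5W tumour 3 and 869 without day 0 tumour 1, and of the 1661 lower genes 692 and 476. The causes of these shifts were not tested.

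Of the 176 called genes named in the text, Rc3h2 reversed, to -0.0240 on the log2 scale with the trend removed, and the others kept their direction under each alternative in which they were tested. Without day 0 tumour 1, 46 of them lost their call, and without D5W tumour 3, 37. Among genes not called, the sign turned with library totals for Angpt2 (0.0112), Dct (0.0690) and Tyr (0.0275), with voom for Cdkn1a (-0.0274) and Tyr (0.00422), and with the trend removed for Tyrp1 (-0.00502). It also turned when 1 library was left out at a time, over which Fos ran between -0.21 and 0.36, Cdkn1a between -0.0304 and 0.0940, Dct between -0.0911 and 0.0338, Pmel between -0.27 and 0.0184 and Tyrp1 between -0.0326 and 0.21. Small changes may have been missed with 3 libraries a group, although some genes whose groups overlapped, such as Gas5, were called.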

Other observations

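Host genes of small nucleolar RNAs, many of whose spliced transcripts are removed by nonsense-mediated decay, were the lower members of a list of long noncoding RNAs. Of 21 tested long noncoding RNAs and snoRNA hosts 7 were lower, and these were Zfas1, Snhg1, Snhg6, Snhg8, Snhg12, Gas5 and Epb41l4aos, while 6 were higher, and these were Kcnq1ot1, Meg3, Mir17hg, Neat1, Pvt1 and the host gene Snhg17. Zfas1 had 20.9, 22.9 and 14.9 CPM in D5W tumours, against 39.5, 55.1 and 32.9 CPM in day 0 tumours (log2 difference -1.12 ± 0.22), and Snhg8 had 11.6, 10.8 and 9.52 CPM in D5W tumours, against 18.5, 20.4 and 14.5 CPM in day 0 tumours. Both kept their calls whichever library was left out. The list had 3 lower without day 0 tumours 1 or 2, 1 higher without D5W tumour 3, day 0 tumour 1 or day 0 tumour 3, and 2 higher after the length and GC trend was removed. Kcnq1ot1, a nuclear RNA that silences its imprinted neighbours, rose by 1.55 ± 0.27 on the log2 scale, and it overlaps Kcnq1 on the other strand.

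Some proteasome subunits were lower, and few lysosomal genes were called. Of 31 proteasome subunits 8 were lower and none was higher (3 lower without D5W tumour 3 or day 0 tumour 2, 2 without day 0 tumour 1 or after the trend was removed, and none with libraries scaled by their totals), and Psmb1, a subunit of the catalytic core, had 134, 132 and 116 CPM in D5W tumours, against 173, 168 and 156 CPM in day 0 tumours. Of 38 genes for the lysosome and its proton pump 6 were lower and 1, the galactosidase Gla, was higher (10 lower without D5W tumour 2, 2 without D5W tumour 3, 1 without day 0 tumours 1 or 2 or with libraries scaled by their totals, and 3 after the trend was removed). The share lower in that list (15.8%) was near that of all tested genes (9.69%). Lamtor2, which anchors mTORC1 to lysosomes, had 49.1, 52.5 and 44.7 CPM in D5W tumours, against 72.6, 65.4 and 64.3 CPM in day 0 tumours. Eif1b, a relative of the start codon selection factor eIF1, and Jmjd6, a lysyl hydroxylase, fell by 0.48 ± 0.08 and 0.55 ± 0.09 on the log2 scale, Arpc5l and Pomk by 0.39 and 0.47. Among the genes with the lowest log2 differences, Inka1, an inhibitor of the kinase Pak4, had 6.92, 8.87 and 5.09 CPM in D5W tumours, against 24.9, 19.03 and 22.7 CPM in day 0 tumours, and G0s2, an inhibitor of the main triglyceride lipase, had 2.21, 2.91 and 1.71 CPM in D5W tumours, against 5.496, 6.12 and 5.99 CPM in day 0 tumours. Hsd17b1, Tmem204 and Tmem256 fell by 1.13, 1.11 and 1.10, and Tmem204 lost its call without D5W tumour 3.

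Other lists had members in both directions. Of 25 genes of fatty acid metabolism 4 were higher and 4 lower, of 14 metallothioneins and metal handling genes 2 and 2, of 18 cell cycle inhibitors and cyclins 2 and 3, of 10 YAP targets 2 and 1, of 22 integrins 2 and 1 and of 16 VEGF, angiopoietin and PDGF ligands 3 and 2. The shares higher and lower were 16% and 16% for fatty acid genes and 14.3% and 14.3% for metal handling. They were 11.1% and 16.7% for cell cycle genes, 20% and 10% for YAP targets and 9.09% and 4.55% for integrins. For the VEGF, angiopoietin and PDGF ligands they were 18.8% and 12.5%, against 11.8% and 9.69% of all tested genes. Without day 0 tumour 1 the counts, with the lists in the same order, were 1 and 3, 1 and 1, 1 and 0, 1 and 0, 1 and 0, and 0 and 1. Without D5W tumour 3, 2 fatty acid genes, and no VEGF, angiopoietin or PDGF ligand, were higher, and 1 cell cycle gene was lower, and after the trend was removed 2 fatty acid genes were higher.

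Gm10800 and Gm10801, a pair of neighbouring predicted genes chosen after their values were seen, had the largest increases of the comparison on the log2 scale. Gm10800 had 0.0710, 0.0564 and 24.2 CPM in D5W tumours, against 0.0146, 0.0362 and 0.0127 CPM in day 0 tumours, and Gm10801 had 0.0355, 0.0339 and 8.85 CPM in D5W tumours, against 0.0146, 0 and 0 CPM in day 0 tumours. D5W tumour 3 alone was high in both. Svep1, an extracellular matrix protein, had 2.53, 0.395 and 5.53 CPM in D5W tumours, against 0.219, 0.145 and 0.203 CPM in day 0 tumours, with D5W tumour 3 again the highest. Enkur, a protein of cilia and sperm, had 1.84, 1.45 and 3.76 CPM in D5W tumours, against 0.0292, 0.199 and 0.127 CPM in day 0 tumours.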
